A study of Mus musculus with 4 samples.

Results

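The secreted Wnt antagonists are extracellular proteins that hold Wnt signalling in check, and the 9 genes described here are the secreted frizzled-related proteins Sfrp1, Sfrp2, Sfrp4, Sfrp5 and Frzb, the Wnt inhibitory factor Wif1, and the Dickkopf genes Dkk1, Dkk2 and Dkk3. They were chosen by name, with earlier results of these data known. Each of the 9 had 1 probe set annotated to it alone, among 19938 genes measured. Testes of male Lhcgr KO mice given busulfan at 44 mg/kg and killed 4 weeks later (2 arrays) were set against testes of control WT males given the same busulfan treatment (2 arrays). Lhcgr is the gene of the luteinizing hormone receptor, through which Leydig cells are driven to make testosterone. Busulfan is an alkylating drug that depletes germ cells, so the testes of both groups should be short of them. The design asks how gene expression in such testes differs when the receptor is absent. The labels give neither the strain nor the age of the mice, and they do not say whether the 2 replicates of a group were separate animals, so the spread behind the p-values may be technical. Values are log2 intensities of 1-colour Affymetrix whole-transcript arrays, given for replicate 1 and then replicate 2 of a group, and with 2 arrays a group their number limits the precision of every value.

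Wnt proteins signal by binding Frizzled receptors together with the co-receptors Lrp5 or Lrp6, which stabilises β-catenin, or by routes without β-catenin that use receptors such as Ror2. The frizzled-related proteins carry a cysteine-rich domain like that of the Frizzled receptors and bind Wnt proteins outside the cell, as does Wif1 through a domain of its own. Dkk1 and Dkk2 instead bind Lrp5 and Lrp6. In the testis, Wnt signals pass between somatic cells and spermatogonia, the germ cells that include the stem cells.

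Array medians lay between 198 and 215 intensity units over all probe sets, and over all genes the log2 fold change, Lhcgr KO over control WT, had a median of 0.072, with 60.6% of genes above 0. The lowest intensity was just over 16 on each array, as if a constant had been added, which would compress folds of weak genes. No testis without busulfan was measured, so the loss of germ cells could not be checked. Sertoli cell markers were high on all arrays. Sox9, for example, read 11.62 and 11.68 in Lhcgr KO testes and 11.45 and 11.35 in control WT testes, where the array medians over genes were between 7.80 and 7.83. Control WT replicate 2 stood apart by genes of the epididymis, with 6 of 11 measured markers there more than 1 log2 unit above every other array. Lhcgr itself is not analysed here, and the genotype labels were therefore not checked against its level.

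In Lhcgr KO testes 2 of the 9 antagonists rose, Sfrp4 by 4.26-fold and Sfrp1 by 2.92-fold, and none fell. In bulk tissue, more cells of a type and more RNA per cell cannot be told apart, nor can fewer cells and less RNA. The other 7 did not pass the test (limma, Benjamini-Hochberg adjusted p under 0.05 over all genes). Over all genes 3.1% passed, with 0.963% higher and 2.14% lower in Lhcgr KO. The members' median log2 fold change was 0.28, against 0.072 for all genes. Both Lhcgr KO arrays lay above both control WT arrays for 8 members and below them for Frzb, against 36.8% and 22.4% of all genes. For 5 of those 8, Sfrp2, Sfrp5, Dkk1, Dkk2 and Dkk3, the gap between the groups' nearest arrays was smaller than the gap between the replicates of at least 1 group. Since the members were chosen with earlier results of these data known, the comparisons with all genes are descriptive only.

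**Figure D1:**
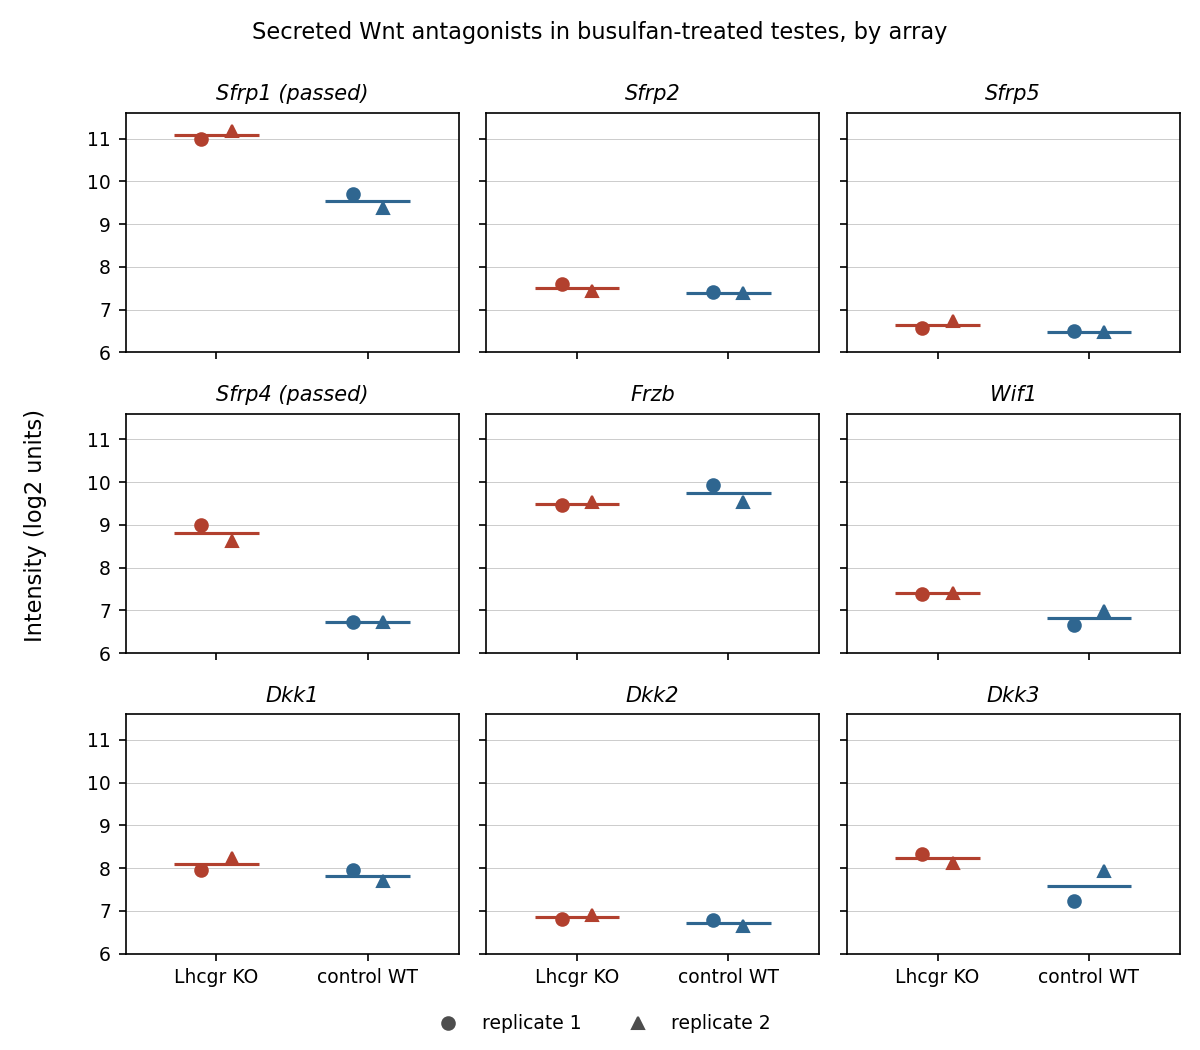
Intensity in log2 units (vertical axis, same scale in every panel) of the 9 secreted Wnt antagonists on each array, with Lhcgr KO in red and control WT in blue. Circles are replicate 1, triangles replicate 2 and lines the group means of 2 arrays. Sfrp1 and Sfrp4 are set apart by group, by 1.30 and 1.90 log2 units between the nearest arrays, while the groups nearly touch for Sfrp2, Sfrp5, Dkk1, Dkk2 and Frzb.

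Sfrp4 (probe set 10403834) encodes a frizzled-related protein that in mouse and human is best known for its part in bone. It read 9.01 and 8.63 log2 units in Lhcgr KO testes, against 6.73 and 6.72 in control WT testes. On the linear scale these were intensities of 514 and 397 in Lhcgr KO, against 106.4 and 105.6 in control WT. The 2 control WT arrays were almost identical, 0.011 log2 units apart, and the lower Lhcgr KO array stood 1.90 above the higher control WT array. The log2 fold change was 2.09 ± 0.15 (SE; 95% interval 1.74 to 2.45; limma adjusted p = 0.00274), and 5 of 19938 genes had a larger rise. The spread within the Lhcgr KO pair was 0.37, with replicate 1 the higher. Without Lhcgr KO replicate 1 the change was 1.90 and no longer passed (adjusted p = 0.0598). The control WT values lay at the 25th percentile of genes on those arrays (6.73 and 6.68), and they were not tested for signal above background. If they are background, the fold of 4.26 is a lower bound. Taking 15 off every intensity before the log2 step gave 2.26, and adding 32 gave 1.81.

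Sfrp1 (probe set 10570957), the most studied antagonist of the frizzled-related group, read 11.00 and 11.18 log2 units in Lhcgr KO testes, against 9.70 and 9.38 in control WT testes. The groups were 1.30 log2 units apart at their nearest arrays, several times the gap of 0.18 within the Lhcgr KO pair and of 0.32 within the control WT pair. The log2 fold change was 1.55 ± 0.15 (SE; 95% interval 1.19 to 1.90; limma adjusted p = 0.00627), and 22 genes had a larger rise. Its size varied little when an array was left out, between 1.39 and 1.71, but it did not pass without Lhcgr KO replicate 1 (adjusted p = 0.0911) or without Lhcgr KO replicate 2 (adjusted p = 0.12).

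The 3 remaining frizzled-related genes did not pass the test. Sfrp2 and Sfrp5, which by sequence form a subfamily with Sfrp1, had log2 fold changes of 0.11 ± 0.12 (SE; limma adjusted p = 0.559) and 0.16 ± 0.12 (adjusted p = 0.407). Sfrp2 read 7.59 and 7.43 log2 units in Lhcgr KO testes and 7.40 and 7.39 in control WT testes. Sfrp5 read 6.57 and 6.73 in Lhcgr KO and 6.51 and 6.47 in control WT, with 19.6% of genes having a lower mean signal. In both genes the gap between the groups, 0.025 and 0.064, was smaller than the 0.16 between the Lhcgr KO replicates.

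Frzb, the nearest relative of Sfrp4 in the family, was the only member with a negative value. It read 9.46 and 9.53 log2 units in Lhcgr KO testes and 9.93 and 9.53 in control WT testes, so that replicate 2 of both groups read the same to the second decimal. Its log2 fold change was -0.24 ± 0.16 (SE; 95% interval -0.61 to 0.13; limma adjusted p = 0.365). The value rested on control WT replicate 1 and was -0.04 without it. The 95% intervals of Sfrp2, Sfrp5 and Frzb ended at 0.39, 0.44 and 0.13, below the lower ends of 1.19 for Sfrp1 and 1.74 for Sfrp4. A difference in response between members was not tested, since each value belongs to its own probe set.

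**Figure D2:**
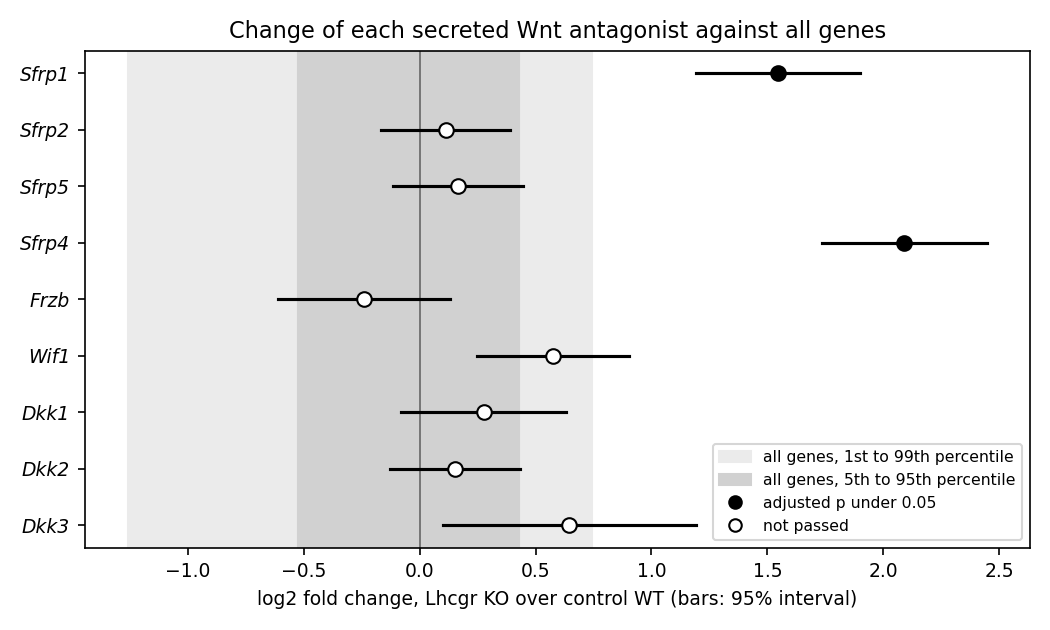
Log2 fold change, Lhcgr KO over control WT (horizontal axis), of each antagonist with its 95% interval over 2 arrays a group, where filled points passed the test. Grey bands give the middle of the distribution over all 19938 genes, from -0.52 to 0.43 (5th to 95th percentile) and from -1.26 to 0.745 (1st to 99th percentile). Sfrp1 and Sfrp4 lie right of both bands, Wif1 and Dkk3 between the bands' right edges, and the other 5 inside the inner band.

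Wif1, which binds Wnt proteins directly, came nearest to the threshold among the members that missed it. It read 7.39 and 7.40 log2 units in Lhcgr KO testes, against 6.67 and 6.97 in control WT testes. The lower Lhcgr KO array was 0.41 above the higher control WT array, more than the gap of 0.31 within the control WT pair. The log2 fold change was 0.57 ± 0.14 (SE; 95% interval 0.25 to 0.90; unadjusted p = 0.00462 and adjusted p = 0.087, both from limma), with 2.06% of genes showing a larger rise. It passed without control WT replicate 2, the array with epididymal signal (0.73, adjusted p = 0.0428), and had a value of 0.42 without control WT replicate 1.

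Of the Dickkopf genes, none passed the test. Dkk1, an inhibitor of the co-receptors Lrp5 and Lrp6 and itself a target of β-catenin signalling, read 7.96 and 8.24 log2 units in Lhcgr KO testes and 7.95 and 7.70 in control WT testes. The groups were 0.011 apart at their nearest arrays, and the log2 fold change was 0.28 ± 0.15 (SE; limma adjusted p = 0.302). Dkk2, which can inhibit or activate the pathway depending on its partners, read 6.81 and 6.91 in Lhcgr KO and 6.78 and 6.64 in control WT, a log2 fold change of 0.15 ± 0.12 (adjusted p = 0.435). For both genes the replicates of each group differed by more than the nearest arrays of the 2 groups.

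Dkk3, the divergent Dickkopf whose part in Wnt signalling is less clear, had the widest interval of the family. It read 8.34 and 8.12 log2 units in Lhcgr KO testes, against 7.23 and 7.94 in control WT testes. The 2 control WT arrays differed by 0.70, more than the 0.18 between the nearest arrays of the 2 groups. The log2 fold change was 0.65 ± 0.23 (SE; 95% interval 0.10 to 1.19; unadjusted p = 0.0272 and adjusted p = 0.177, both from limma). It was 0.29 without control WT replicate 1 and 0.997 without control WT replicate 2, where it passed (adjusted p = 0.0144). An unadjusted p under 0.05 was found for 4 of the 9 members, all of them higher in Lhcgr KO. Over all genes 22.7% had such a p, and 12.9% had it and were higher.

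**Figure D3:**
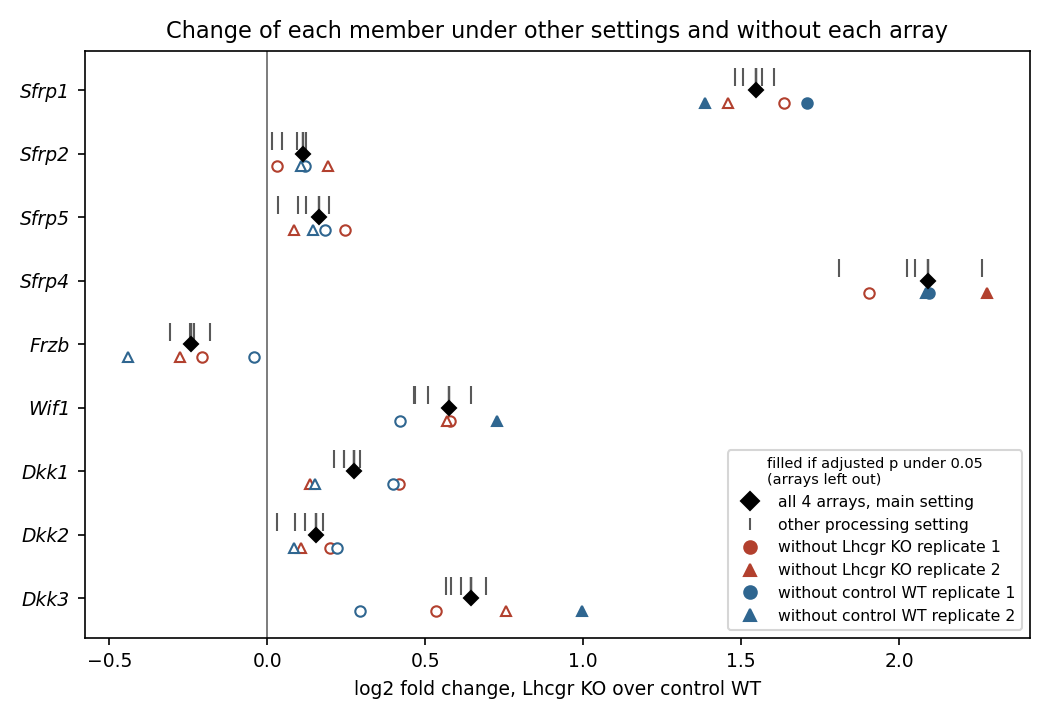
Log2 fold change, Lhcgr KO over control WT (horizontal axis), of each antagonist with all 4 arrays (diamonds), under other processing settings (ticks) and without each array in turn (circles and triangles, filled where the adjusted p was under 0.05). Each member keeps 1 side of 0 in all settings shown, though the lowest values of Sfrp2, Sfrp5 and Dkk2 are 0.014, 0.033 and 0.030. Dkk3 spreads the widest, from 0.29 to 0.997, and the lowest values of Sfrp1 and Sfrp4 are 1.39 and 1.81.

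The intervals state what these arrays can hold apart. Of the 7 members that did not pass, 6 had a 95% interval that lay wholly inside a change of 2-fold either way, and Dkk3 was the exception. For 5 of the 7 the interval took in 0. Weak members such as Sfrp5 and Dkk2 were not tested for signal above background, and an added constant would compress their folds. If the replicates are technical, the intervals also leave out the spread between animals. A narrow interval here therefore does not exclude a larger change of the transcript.

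The other inhibitors looked at did not pass the test. Of 17 other secreted or membrane-bound inhibitors and Dickkopf relatives, among them Dkk4, Sost, Sostdc1, Notum, Draxin and Trabd2b, 0 rose and 0 fell with limma, and 3 had an unadjusted p under 0.05. With 3.1% of all genes called, a count of 0 among 17 is near the background. Their median log2 fold change was 0.17. The lowest p belonged to Rnf43, a ubiquitin ligase that removes Frizzled receptors from the cell surface. It read 8.16 and 8.43 log2 units in Lhcgr KO testes, against 7.39 and 7.66 in control WT testes (log2 fold change 0.77 ± 0.15, SE; limma adjusted p = 0.0519), and under the alternatives its adjusted p ran between 0.0279 and 0.29 and it passed in 7 of 15. Among the 4 receptors that Dickkopf proteins bind, Lrp5, Lrp6, Kremen1 and Kremen2, none passed either. Lrp5 had the lowest p, with 8.74 and 8.64 in Lhcgr KO and 9.03 and 9.06 in control WT (-0.36 ± 0.11, adjusted p = 0.147).

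Of 19 genes of Wnt ligands, 2 rose, none fell and 17 did not pass. Wnt5a, a ligand that mainly signals without β-catenin, read 9.98 and 10.11 log2 units in Lhcgr KO testes, against 8.24 and 7.95 in control WT testes. The log2 fold change was 1.95 ± 0.14 (SE; limma adjusted p = 0.00274), a size near that of Sfrp4. Like Sfrp1, it did not pass without Lhcgr KO replicate 1 (adjusted p = 0.0818) or without Lhcgr KO replicate 2 (adjusted p = 0.073). Wnt2b read 8.03 and 7.74 in Lhcgr KO and 6.87 and 7.18 in control WT (0.86 ± 0.16, adjusted p = 0.0434), with an adjusted p between 0.0174 and 0.206 over the alternatives. The median of the 19 ligands was 0.18.

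Of 14 Frizzled and other Wnt receptors, 1 rose and 1 fell. Ror2, a receptor of Wnt5a, read 8.76 and 8.64 log2 units in Lhcgr KO testes and 8.01 and 8.13 in control WT testes (log2 fold change 0.63 ± 0.12, SE; limma adjusted p = 0.0446). Fzd1, a Frizzled receptor, read 8.83 and 8.74 in Lhcgr KO and 9.34 and 9.52 in control WT (-0.64 ± 0.12, adjusted p = 0.0457). Both were close to the threshold, and their adjusted p reached 0.203 and 0.27 under 1 alternative or another. Of 10 R-spondins, R-spondin receptors and secretion factors, Porcn fell and none rose. Porcn, the acyltransferase that attaches the lipid Wnt proteins need, read 9.01 and 8.92 in Lhcgr KO and 9.75 and 9.58 in control WT (-0.70 ± 0.12, adjusted p = 0.0344, and up to 0.24 under the alternatives).

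Of 17 measured target genes of β-catenin signalling, 1 rose and none fell, with a median log2 fold change of 0.15. Lef1, a transcription factor that works with β-catenin, read 8.43 and 8.16 log2 units in Lhcgr KO testes and 7.65 and 7.53 in control WT testes (0.70 ± 0.13, SE; limma adjusted p = 0.0476, and up to 0.203 under the alternatives). Axin2, a widely used readout of the pathway, read 8.92 and 8.53 in Lhcgr KO and 8.17 and 8.60 in control WT, so its groups overlapped (adjusted p = 0.309). Dkk1 and 5 of the other inhibitors, Nkd1, Notum, Rnf43, Znrf3 and Apcdd1, also count among these targets.

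**Figure D4:**
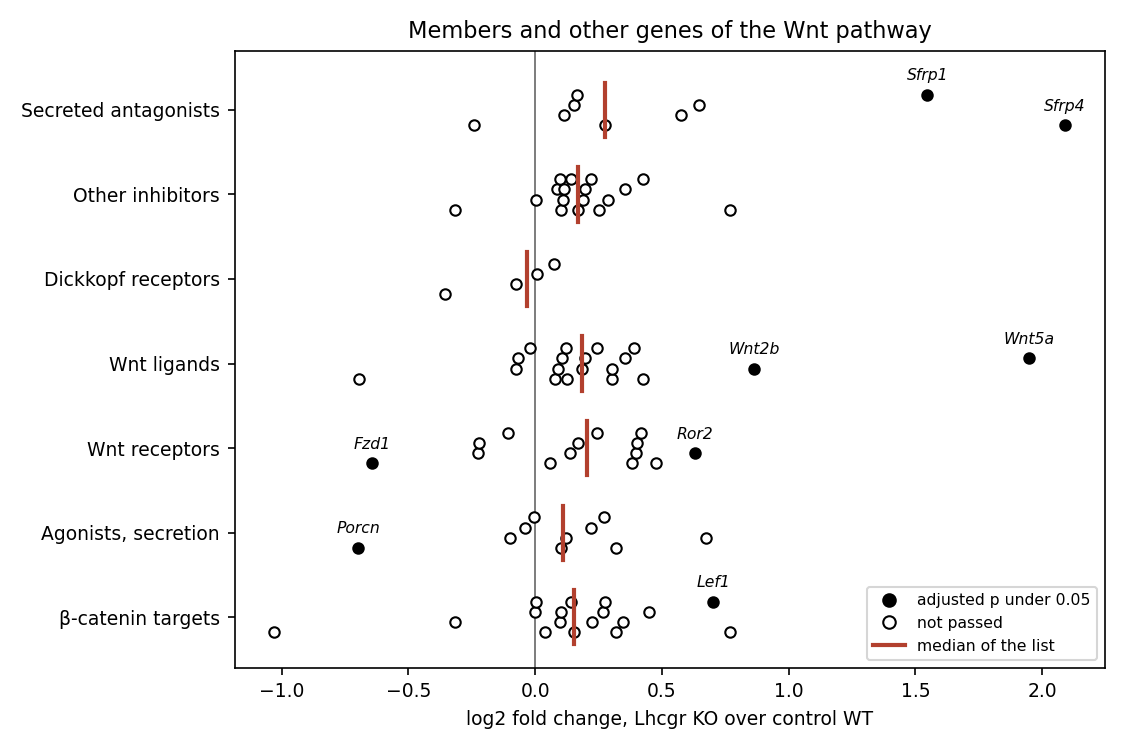
Log2 fold change, Lhcgr KO over control WT (horizontal axis), of the 9 secreted antagonists and of 6 other lists of Wnt pathway genes, 1 point a gene, with filled and named points for genes that passed the test and red lines for list medians. Some genes stand in 2 lists. Sfrp4, Wnt5a and Sfrp1 lie furthest right, at 2.09, 1.95 and 1.55.

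Several cell type marker lists differed between the groups beside the rise of Sfrp1 and Sfrp4. Of 11 measured markers of adult Leydig cells 6 fell and none rose, with summed linear intensities of 5081 and 3821 in Lhcgr KO testes and 28040 and 15070 in control WT testes. Of 12 macrophage markers 6 fell and none rose, with sums of 4871 and 5111 in Lhcgr KO against 8630 and 10790 in control WT. Markers of Leydig progenitors and stromal cells counted 2 risen and none fallen of 11. Their sums were 17188 and 15854 in Lhcgr KO and 14193 and 14365 in control WT, a ratio of means of 1.16. Dcn, the strongest marker of the list, weighs most in these sums. It read 12.82 and 12.75 log2 units in Lhcgr KO and 12.86 and 12.83 in control WT. The 2 that rose were Thbs2, a matrix glycoprotein (log2 fold change 1.57 ± 0.18, SE; limma adjusted p = 0.0104), and Ptch1, the Hedgehog receptor (0.74 ± 0.12, adjusted p = 0.0284). The list was mixed, with 8 positive and 3 negative log2 fold changes and a median of 0.19. Its lowest value was that of Lum (-0.63 ± 0.14, SE; limma adjusted p = 0.073). The part of these lists in the members' values was not tested.

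Sertoli cell markers summed to 44809 and 45792 in Lhcgr KO and 45470 and 42687 in control WT, with Amh alone risen of 12 and none fallen. None of 10 peritubular myoid markers passed, and their sums were 13112 and 11044 in Lhcgr KO against 10914 and 9923 in control WT, a ratio of means of 1.16 like that of the stromal list. Of 10 endothelial markers 1 rose, with sums of 3254 and 3248 in Lhcgr KO against 2759 and 2678 in control WT, a ratio of means of 1.20. Single markers of both lists went both ways. The myoid list held 6 positive and 4 negative log2 fold changes (median 0.06), and the endothelial list 5 and 5 (median 0.01). Germ cell markers counted 1 fallen of 12, and their sums overlapped, at 2494 and 2238 in Lhcgr KO and 3278 and 2140 in control WT. Epididymal markers counted 1 fallen of 11, with sums of 1080 and 1159 in Lhcgr KO against 1096 in control WT replicate 1 and 6154 in control WT replicate 2. Without that last array the changes of Sfrp4 and Sfrp1 were 2.09 and 1.39, and both passed (adjusted p = 0.00061 and 0.00238).

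**Figure D5:**
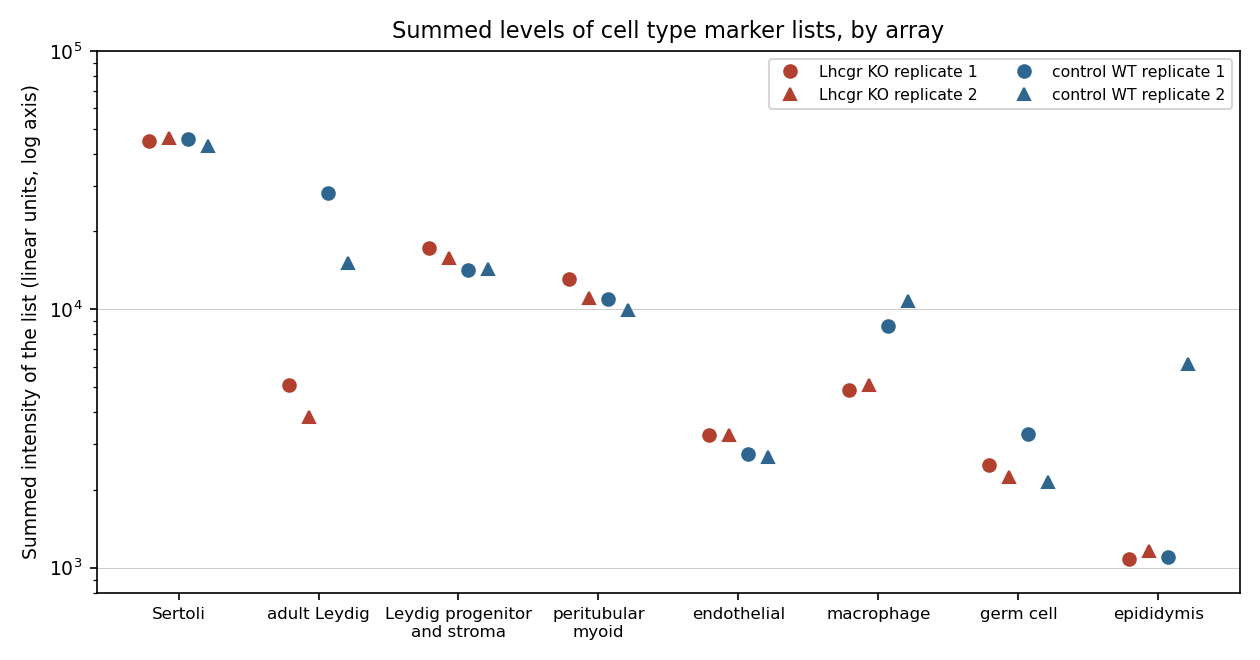
Summed linear intensity (vertical axis, log scale) of 8 lists of cell type markers on each array, with Lhcgr KO in red and control WT in blue. Adult Leydig and macrophage sums are lower on both Lhcgr KO arrays, the stromal, peritubular myoid and endothelial sums are higher on both, by 1.16-fold, 1.16-fold and 1.20-fold in the mean, and the epididymal sum is raised on control WT replicate 2 alone. Strong markers weigh most in a sum, and single markers of the stromal, myoid and endothelial lists went both ways (median log2 fold changes 0.19, 0.06 and 0.01).

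The genes most like Sfrp4 over the 4 arrays were Cbln3, Shisa6 and Ahsg, by the Euclidean distance between log2 intensities centred on each gene's mean. The distances were 0.192, 0.319 and 0.38 log2 units. Cbln3, a cerebellin, read 9.22 and 8.99 log2 units in Lhcgr KO testes, against 6.85 and 7.04 in control WT testes. Shisa6, a membrane protein, read 9.77 and 9.24 in Lhcgr KO and 7.60 and 7.77 in control WT. Ahsg, the plasma protein fetuin-A, read 10.03 and 9.94 in Lhcgr KO and 7.71 and 8.16 in control WT. Sfrp1 was at a distance of 0.705 from Sfrp4, less than any other member. With 4 arrays in 2 groups, such likeness mostly reflects the size of the difference between the groups.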

How the data were processed

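The deposited table gives 1 linear intensity per probe set for each of the 4 arrays. Per the labels' protocols, sense-strand cDNA was made from total RNA, biotin-labelled and run on Affymetrix whole-transcript arrays. The submitters' processing notes name the build mm9. Not given in the sources used here is how probes were summarized, corrected for background and normalized.

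The platform annotation lists a single gene symbol for 21789 of 28856 probe sets, several for 1621 and none for 5446. Only the first kind was used, with the highest-mean probe set for each of 19938 genes. All 9 members matched RefSeq genes (GRCm38.p6, used for names and neighbours) by Entrez number. Log2 intensities were compared with limma 3.58.1 in R 4.3.3 (lmFit, eBayes, no covariates), two-sided, with Benjamini-Hochberg adjustment over all genes and a threshold of 0.05. The prior carried 4.65 degrees of freedom beside 2 residual ones. Scripts were tested on simulated arrays. The members and gene lists were chosen with earlier results of these data known. Named are all members, pathway genes past the threshold (otherwise the lowest p of a list), the 3 genes nearest in pattern to the member with the lowest p, and marker sums. Axin2, Sox9, Amh, the stromal markers Thbs2, Ptch1, Dcn and Lum, and the neighbouring genes were added after their values were seen. The alternatives were 15: 2 scalings, 2 filters on low values, 2 shifts before log2, 2 treatments of multiple probe sets, 2 priors, a replicate block and each array left out.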

Additional observations from a re-analysis of the deposited data

How the results depend on the processing

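Of the 15 alternatives, 7 leave every member's fold change as it is, since each member has 1 probe set and the groups are balanced. Under the 8 that can move it no member changed direction, and 67 of 72 member values kept their side of the threshold. The exceptions all came from leaving out 1 array, where the lone sample is assumed to vary like the other group. Over those 4 fits the log2 fold change of Sfrp1 ran from 1.39 to 1.71 (it did not pass without either Lhcgr KO array), that of Sfrp4 from 1.90 to 2.28 (not without Lhcgr KO replicate 1), that of Wif1 from 0.42 to 0.73 and that of Dkk3 from 0.29 to 0.997 (both passed without control WT replicate 2). The number of members that passed ran from 0 to 4 and that of all genes from 18 to 1039, against 2 and 618 with 4 arrays. Without Lhcgr KO replicate 1, limma called 0 members, and 3 had an unadjusted p under 0.05. Under quantile normalization the values of Sfrp2, Sfrp5 and Dkk2 shrank to 0.014, 0.033 and 0.030. In the main setting they were 0.11, 0.16 and 0.15, so their size depended on the scaling of the arrays, while their sign stayed positive. With the lowest 50% of genes left out, 1 member passed, Sfrp1, because Sfrp4 and 4 others lay below the filter. Taking 15 off each intensity lowered the genes passed to 389, and the cause was not tested. The replicate numbers pair no samples by the labels, and the differences within the 2 pairs had a correlation of 0.0205 across genes. With the replicate block 572 genes passed, and the change of Sfrp4 and Sfrp1 had an adjusted p of 0.00381 and 0.0119. No detection calls were used, so weak values, such as those of Sfrp5 and Dkk2 and of Sfrp4 in control WT, were not tested for signal above background.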

Other observations

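The genes next to the antagonists in the genome were not part of the member list. Of the 18 nearest measured protein-coding neighbours, 1 on each side of every member, 2 rose in Lhcgr KO testes and none fell. Over all genes 0.963% passed the test and were higher, and 2.14% passed and were lower. Epdr1, an ependymin-related gene beside Sfrp4, rose (log2 fold change 0.82 ± 0.15, SE; limma adjusted p = 0.045). Nme8, on the other side of Sfrp4, did not pass (0.22 ± 0.12, adjusted p = 0.297). Tbc1d30, which encodes a Rab GTPase-activating protein and lies beside Wif1, rose as well (1.26 ± 0.17, adjusted p = 0.0164), beside 0.57 for Wif1 itself. The neighbours of Sfrp1, Golga7 and Zmat4, had values of -0.16 ± 0.12 (adjusted p = 0.411) and 0.28 ± 0.11 (adjusted p = 0.21). These genes were looked at after the members' values were known.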
